A study of Homo sapiens with 6 samples.

Results

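Chromatin accessibility was examined at 10 genes that restrain MAP kinase and RAS signaling, of 20033 protein-coding genes annotated in GENCODE release 44: the dual-specificity phosphatases DUSP22, DUSP2, DUSP4, DUSP5, DUSP6 and DUSP10, the Sprouty genes SPRY1 and SPRY2, and the Sprouty-related genes SPRED1 and SPRED2. The genes were chosen by name, and the open regions by position. Overlapping peaks of the 6 lists, by as little as 1 bp, were joined into regions, and a region belonged to a gene when it lay in the gene record or within 50 kb of either end. These windows held 107 of the 89196 merged regions. The libraries were Omni-ATAC, a transposase assay in which fragments accumulate at accessible DNA, from MM.1S, an established human multiple myeloma line. Cells of 1 group received 120 nM CB-6644, an inhibitor of the RUVBL1/2 ATPases, for 72 h, and cells of the control group received DMSO. Each group had 3 libraries, from live sorted cells, of this single line. Nothing in the labels says that the 3 came from separate cultures, so p-values measure the spread between these libraries, which may be technical.

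MAP kinases are switched on by phosphorylation of a threonine and a tyrosine in their activation loop, and dual-specificity phosphatases remove both. DUSP2, DUSP4 and DUSP5 act mainly in the nucleus, DUSP6 holds back ERK in the cytoplasm, DUSP10 prefers JNK and p38, and DUSP22 is a small atypical phosphatase without the MAP kinase docking domain of the others. Sprouty proteins dampen receptor tyrosine kinase signaling upstream of RAS and RAF. SPRED proteins bring neurofibromin, which inactivates RAS, to the membrane. Transcription of several of these genes rises when ERK is active, so that they form a negative feedback on the pathway.

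The deposited lists hold peaks and no read totals, so the depth is unknown and a site with no peak was not detected rather than shown to be closed. The lists held 58563 to 71781 peaks with CB-6644 and 65569 to 79020 with DMSO. A stand-in for depth, the background level that each list's fold and p-values imply over its shortest peak length, was 3.20 to 7.05 tags per kb with CB-6644 and 6.40 to 9.08 with DMSO, and its part in the absence of peaks was not tested. CB-6644 replicate 2 and DMSO replicate 1 had a shorter minimum peak length (65 and 91 bp) than the other 4 libraries (131 to 152 bp), and are called short-fragment libraries here. They also had the lowest stand-in for depth of their groups, 3.20 and 6.40 tags per kb. Fragment length and depth thus cannot be told apart by this label. At marker genes, 6 of 7 plasma cell and myeloma promoters were called in all 6 libraries and the seventh, of SLAMF7, in some of them. Of 9 markers of other cell types 4 had a promoter peak in all 6 libraries, namely PAX5, CD14, EPCAM and COL1A1. The promoters of CD3E, CD4, MS4A1, LYZ and GATA1 had none in any.

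The sequences shown first are a selection of sites at which the groups differed by 1 or more of the measures used here. They include every region that passed as lower in summit pile-up. The regions that passed as higher at DUSP2 and DUSP6, and the group-only regions in IRF4 and DUSP6, are left out. Each sequence runs from 100 bp before to 100 bp after the strongest summit on the plus strand of hg38, 5′ to 3′. Capitals mark matches on either strand to AP-1 (TGANTCA), the ATF4-CEBP composite (TGATGNAA) or an E-box (CAGGTG). The other motifs searched, MAF, IRF, ETS and CRE, had no match in these windows, and a sequence wholly in lower case held no match at all.
DUSP22 upstream, higher with CB-6644 by pile-up, E-box in capitals, chr6:257830-258030: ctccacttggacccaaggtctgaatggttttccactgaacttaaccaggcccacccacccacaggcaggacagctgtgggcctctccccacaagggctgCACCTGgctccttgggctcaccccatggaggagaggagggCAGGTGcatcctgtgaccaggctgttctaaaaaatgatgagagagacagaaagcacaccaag
DUSP22 intron, called with CB-6644 only, chr6:313150-313350: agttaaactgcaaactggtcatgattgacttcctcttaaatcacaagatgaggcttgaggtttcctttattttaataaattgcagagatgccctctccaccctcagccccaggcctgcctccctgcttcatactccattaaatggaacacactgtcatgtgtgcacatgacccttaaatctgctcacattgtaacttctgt
DUSP22 intron, called with DMSO only, chr6:316487-316687: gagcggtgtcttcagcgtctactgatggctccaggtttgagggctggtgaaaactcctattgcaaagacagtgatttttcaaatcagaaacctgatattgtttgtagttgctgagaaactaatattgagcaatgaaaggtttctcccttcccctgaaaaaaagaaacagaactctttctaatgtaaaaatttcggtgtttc
DUSP22 exon and flank, lower with CB-6644 by pile-up, AP-1 in capitals, chr6:319906-320106: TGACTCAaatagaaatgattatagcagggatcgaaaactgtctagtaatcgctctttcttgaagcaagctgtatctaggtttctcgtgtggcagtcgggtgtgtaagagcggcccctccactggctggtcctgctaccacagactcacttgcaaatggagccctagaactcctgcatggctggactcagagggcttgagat
DUSP22 intron, lower with CB-6644 by pile-up, ATF4-CEBP and E-box in capitals, chr6:323049-323249: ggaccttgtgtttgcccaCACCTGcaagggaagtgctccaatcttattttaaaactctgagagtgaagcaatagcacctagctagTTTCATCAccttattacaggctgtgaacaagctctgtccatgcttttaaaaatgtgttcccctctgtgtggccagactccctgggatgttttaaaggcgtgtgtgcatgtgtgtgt
DUSP2 window, in an intron of ASTL, lower with CB-6644 by pile-up, AP-1 and E-box in capitals, chr2:96131550-96131750: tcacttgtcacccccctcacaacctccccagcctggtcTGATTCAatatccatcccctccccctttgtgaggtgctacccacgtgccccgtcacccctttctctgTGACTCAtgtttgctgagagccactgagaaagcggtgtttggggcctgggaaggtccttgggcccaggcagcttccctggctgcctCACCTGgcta
DUSP5 upstream, called with DMSO only, ATF4-CEBP in capitals, chr10:110492464-110492664: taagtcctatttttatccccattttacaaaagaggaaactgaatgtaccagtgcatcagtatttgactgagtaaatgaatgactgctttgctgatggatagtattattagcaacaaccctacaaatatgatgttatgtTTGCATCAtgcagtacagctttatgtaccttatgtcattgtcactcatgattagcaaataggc
DUSP6 window, intergenic, lower with CB-6644 by pile-up, chr12:89307968-89308168: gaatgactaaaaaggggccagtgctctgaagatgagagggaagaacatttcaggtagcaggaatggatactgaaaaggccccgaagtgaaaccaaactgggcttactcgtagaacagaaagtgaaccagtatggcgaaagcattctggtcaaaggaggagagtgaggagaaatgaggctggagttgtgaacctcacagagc
SPRED2 intron, lower with CB-6644 by pile-up, chr2:65374743-65374943: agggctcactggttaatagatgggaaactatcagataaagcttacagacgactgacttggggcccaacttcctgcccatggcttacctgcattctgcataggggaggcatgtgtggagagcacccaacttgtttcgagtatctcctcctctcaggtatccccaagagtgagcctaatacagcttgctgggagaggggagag

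All 10 genes kept an open promoter under both treatments. A promoter region, one that overlaps 1000 bp on either side of an annotated protein-coding start site, was called in all 6 libraries at 10 of 10 genes, against 63.6% of all protein-coding genes. Of the 107 regions, 60 were called in all 6 libraries (56.1%, against 47.2% of all merged regions). Another 5 were DMSO-only, called in every DMSO library and in no CB-6644 library, which is 4.7% against 4.5% of all merged regions. There were 2 CB-6644-only regions (1.9% against 0.586%). DMSO-only regions lay in the windows of 3 of the 10 genes, DUSP22, DUSP5 and DUSP6, where 19.8% of all protein-coding genes had at least 1, and both CB-6644-only regions lay in the DUSP22 window, where 4.29% of all genes had at least 1. DUSP22 had 3 DMSO-only regions, and 3.82% of all genes had 2 or more. The DMSO-only share was thus near that of all regions. Of the remaining regions 16 were called in 1 library and 24 in another mix of libraries. Of the 6 that were called in all DMSO libraries and in 2 of the 3 CB-6644 libraries, 5 were missing in the short-fragment CB-6644 replicate 2.

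**Figure D1:**
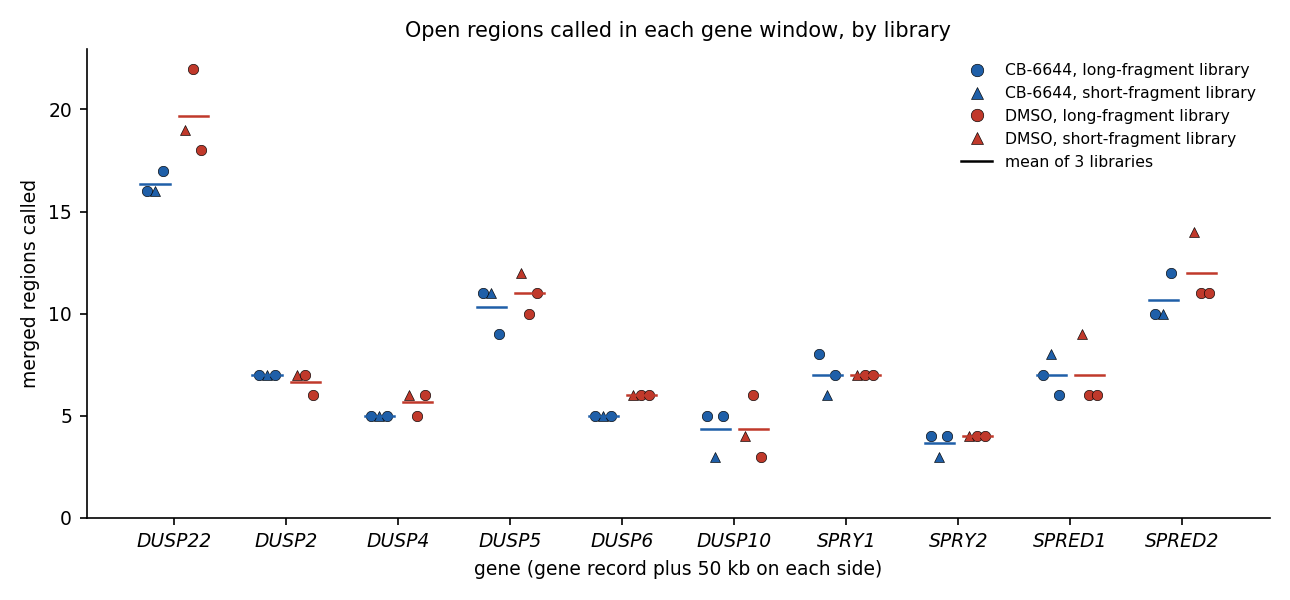
Number of merged regions called in each gene window (vertical axis) for the 10 genes (horizontal axis), with 1 point per library, circles for long-fragment and triangles for short-fragment libraries, and a bar at the mean of 3. The DUSP22 window held 16 or 17 regions in the CB-6644 libraries and 18 to 22 in the DMSO libraries, and the DUSP6 window 5 and 6, while the groups overlapped at the other 8 genes.

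Summed over the 10 windows, 78, 74 and 77 regions were called in CB-6644 replicates 1, 2 and 3, and 88, 84 and 78 in the DMSO replicates. The means were 76.3 ± 2.08 and 83.3 ± 5.03 (SD, n = 3 each), a difference of -7 regions (exact two-sided permutation test, p = 0.2, where 0.1 is the smallest p that 3 against 3 libraries allow). Per 1000 regions called in the same library, the counts were 1.31 ± 0.0722 with CB-6644 and 1.22 ± 0.0159 with DMSO, a difference of 0.0904 in the other direction (exact two-sided permutation test, p = 0.2). Neither difference exceeded the spread between libraries by this test. Gene by gene, the counts did not overlap between the groups at DUSP22, with 16, 16 and 17 against 19, 22 and 18 regions, and at DUSP6, with 5 in every CB-6644 library against 6 in every DMSO library (exact p = 0.1 for each, the smallest possible). Windows with fewer regions in every CB-6644 library than in any DMSO library were thus 2 of 10 here, against 12.1% of all protein-coding genes, and windows with more were 0 of 10, against 0.739%.

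The leading promoter region of each gene, the one with the highest mean fold enrichment, is described next. Fold enrichment is the authors' ratio of the fragment pile-up at the summit to the local background, and has no scaling between libraries. The same constant is added to both terms before the division. The fold is therefore below the plain ratio, most where the background is low. Among the nuclear phosphatases, the DUSP2 promoter (chr2:96145133-96145700, over the first exon) had folds of 13.95, 20.6 and 13.8 in the CB-6644 libraries and 23.1, 17.7 and 17.2 in the DMSO libraries. At DUSP4 (chr8:29349855-29351373) they were 15.4, 20.2 and 15.5 in the CB-6644 libraries and 15.4, 12.2 and 12.3 in the DMSO libraries. DUSP5 (chr10:110497391-110498015) had 14.2, 17.3 and 14.8 in the CB-6644 libraries and 15.9, 14.6 and 11.8 in the DMSO libraries. The DMSO values were the higher ones at DUSP2 and the lower ones at DUSP4 and DUSP5, on average, and the groups overlapped at DUSP2 and DUSP5. At DUSP4 each CB-6644 value lay above each DMSO value, although the lowest CB-6644 and the highest DMSO value both round to 15.4.

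For the cytoplasmic ERK phosphatase DUSP6 (chr12:89352156-89352994) the folds were 9.13, 15.2 and 9.06 in the CB-6644 libraries and 13.2, 9.45 and 8.76 in the DMSO libraries. The DUSP10 promoter (chr1:221741766-221743437), of the JNK and p38 phosphatase, gave 15.5, 24.3 and 15.7 in the CB-6644 libraries and 18.4, 14.98 and 14.4 in the DMSO libraries. DUSP22 (chr6:291610-293084) showed 12.7, 18.5 and 11.8 in the CB-6644 libraries and 16.8, 12.95 and 11.7 in the DMSO libraries. In all 3 of these promoters the highest value of each group came from its short-fragment library, and the groups overlapped. The DUSP10 region was the strongest of the leading promoters by p-value, with a within-list percentile of -log10 p between 97.5 and 99.4, and that of DUSP22 followed with 94.4 to 96.7.

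At the 4 Sprouty and SPRED promoters the mean folds were 6.2 to 10.8 with CB-6644 and 5.49 to 10.6 with DMSO, and at the 6 phosphatase promoters they were 11.1 to 18.5 and 10.5 to 19.3. SPRY1 (chr4:123396626-123396898) had folds of 8.18, 17.02 and 7.33 in the CB-6644 libraries and 14.2, 9.11 and 8.58 in the DMSO libraries. SPRY2 (chr13:80341051-80341588) had 8.096, 7.502 and 7.93 in the CB-6644 libraries and 13.4, 8.78 and 7.76 in the DMSO libraries, and its percentile within the lists spanned 20.6 to 65.6. At SPRED1 (chr15:38251284-38253073) the values were 8.71, 9.79 and 10.2 in the CB-6644 libraries and 11.8, 9.96 and 8.65 in the DMSO libraries. At SPRED2 (chr2:65432288-65433054), the lowest of the 10, they were 6.15, 7.35 and 5.09 in the CB-6644 libraries and 6.203, 5.01 and 5.25 in the DMSO libraries. The groups overlapped at all 4 genes.

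Each library's log2 folds were centered on its median over the 42089 regions called in all 6 libraries before the groups were tested with limma. This centering removed a shift of -0.13 (log2, CB-6644 minus DMSO) in those medians. On this scale 8 of the 10 leading promoters were higher and 2 lower with CB-6644, with differences from -0.18 at SPRY2 to 0.48 at DUSP4, and none passed (limma adjusted p from 0.224 to 0.895). In summit pile-up, a second measure explained further on, 4 of the 10 were higher and 6 lower, and none passed either (limma adjusted p from 0.146 to 0.988). The centered folds of the groups did not overlap at DUSP4, DUSP5 and DUSP10, all higher with CB-6644. In pile-up the groups were apart at DUSP4 only. They overlapped at DUSP5, with a difference of -0.16 (limma adjusted p = 0.618), and at DUSP10, with 0.10 (limma adjusted p = 0.759). Over all 13 member promoter regions the folds were apart and higher at 4, against 9.5% of all shared promoter regions. The DUSP4 difference was 0.48 (SE 0.15, limma adjusted p = 0.224), on means of 17.02 ± 2.74 against 13.3 ± 1.85 fold (SD, n = 3 each), and that of DUSP2 was -0.15 (SE 0.18, limma adjusted p = 0.721), on 16.1 ± 3.85 against 19.3 ± 3.28. Over all 13 member promoter regions called in every library, 11 were higher and the median difference was 0.20, against 0.15 over 13341 such promoter regions in the genome. Only 21.2% of those promoter regions were lower with CB-6644, so that higher values after centering were common at promoters. By pile-up 7 of the 13 were lower (53.9%, median -0.10), against 32% of all shared promoter regions (median 0.09).

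**Figure D2:**
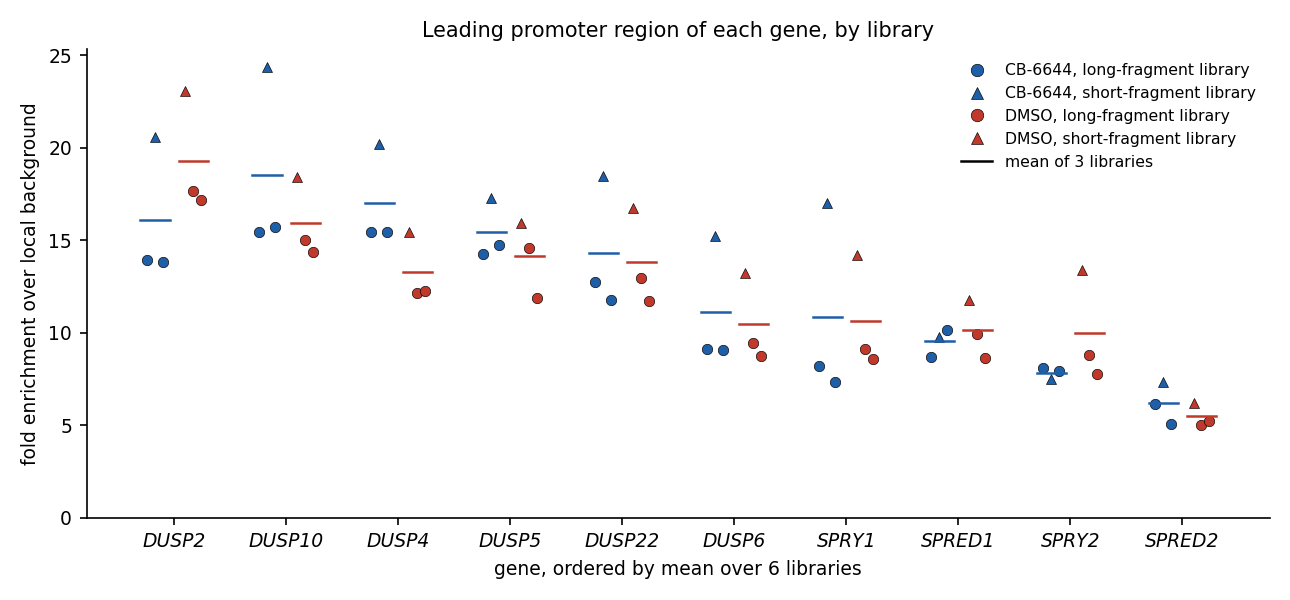
Fold enrichment over local background (vertical axis, linear) at the leading promoter region of each gene, ordered from the highest mean over the 6 libraries at the left, with CB-6644 libraries in blue, DMSO libraries in red and bars at the group means. The groups overlap at 9 of the 10 promoters, and triangles, the short-fragment libraries, are mostly the highest points of their group.

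Across the 60 shared regions, promoters included, no change in fold enrichment passed the test. Of 42089 shared regions in the genome 0.432% passed, 0.238% higher and 0.195% lower. In the member windows 0 of 60 passed, 9 had an unadjusted p under 0.05 (15%, against 12.7% of all shared regions), and the lowest adjusted p was 0.101 (limma). There were 31 regions higher and 29 lower with CB-6644, so 48.3% were lower against 41.5% of all shared regions, and the median differences were 0.02 and 0.06 on the log2 scale. The centered values did not overlap between the groups at 9 regions that were higher and 10 that were lower, which is 15% and 16.7% of the 60 against backgrounds of 10.7% and 10.1%.

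The fold divides by a local background, which can be solved from the same fold and p-values. It was compared between the groups only at the regions that passed in summit pile-up, where it differed in the same direction. Other regions were not compared in this way. The summit pile-up, the number of fragments stacked at the summit, was also recovered from the authors' fold and p-values, divided by the genome-wide background of the library and tested in the same way. By this measure 8 of the 60 regions passed (13.3%, against 9.88% of all shared regions), 3 higher (5.0% against 5.36%) and 5 lower (8.3% against 4.52%). A total of 42 regions, or 70%, were lower, against 41.2% of all shared regions, with median log2 differences of -0.13 and 0.07. Regions whose libraries did not overlap numbered 5 higher and 11 lower (8.3% and 18.3%, against 16.8% and 12.7%). The sign was the same in fold and pile-up at 43 of 60 regions. The pile-up count changed with the libraries used. It was 1 without DMSO replicate 2, 3 without DMSO replicate 3, 4 without CB-6644 replicate 3 and 5 without CB-6644 replicate 1. These are the lowest counts. Without DMSO replicate 1 the count was also below 8, and without CB-6644 replicate 2 it was above 8. Each such fit has fewer libraries, so a lower count alone does not show that the calls rested on the library left out.

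Because the short-fragment libraries crossed the groups, both measures were also tested with the fragment-length set as a term and in the 4 long-fragment libraries alone. These fits cannot tell fragment length from depth, since the same libraries had the lowest stand-in for depth of their groups. With the term, 7 of 60 regions passed in fold (against 8.65% of all shared regions), 3 higher (against 4.12%) and 4 lower (against 4.53%). In pile-up 16 of 60 passed (against 21.8%), 4 higher (against 11.6%) and 12 lower (against 10.3%). In the long-fragment libraries 5 of 60 passed in fold (against 4.85%), 1 higher (against 2.48%) and 4 lower (against 2.37%). By pile-up in those libraries 16 of 60 passed (against 17.9%), 5 higher (against 9.92%) and 11 lower (against 7.95%). The lower sites in a SPRED2 intron, in the ASTL intron near DUSP2 and in the flank of DUSP6, and the higher site upstream of DUSP22, passed in fold in both of these fits.

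**Figure D3:**
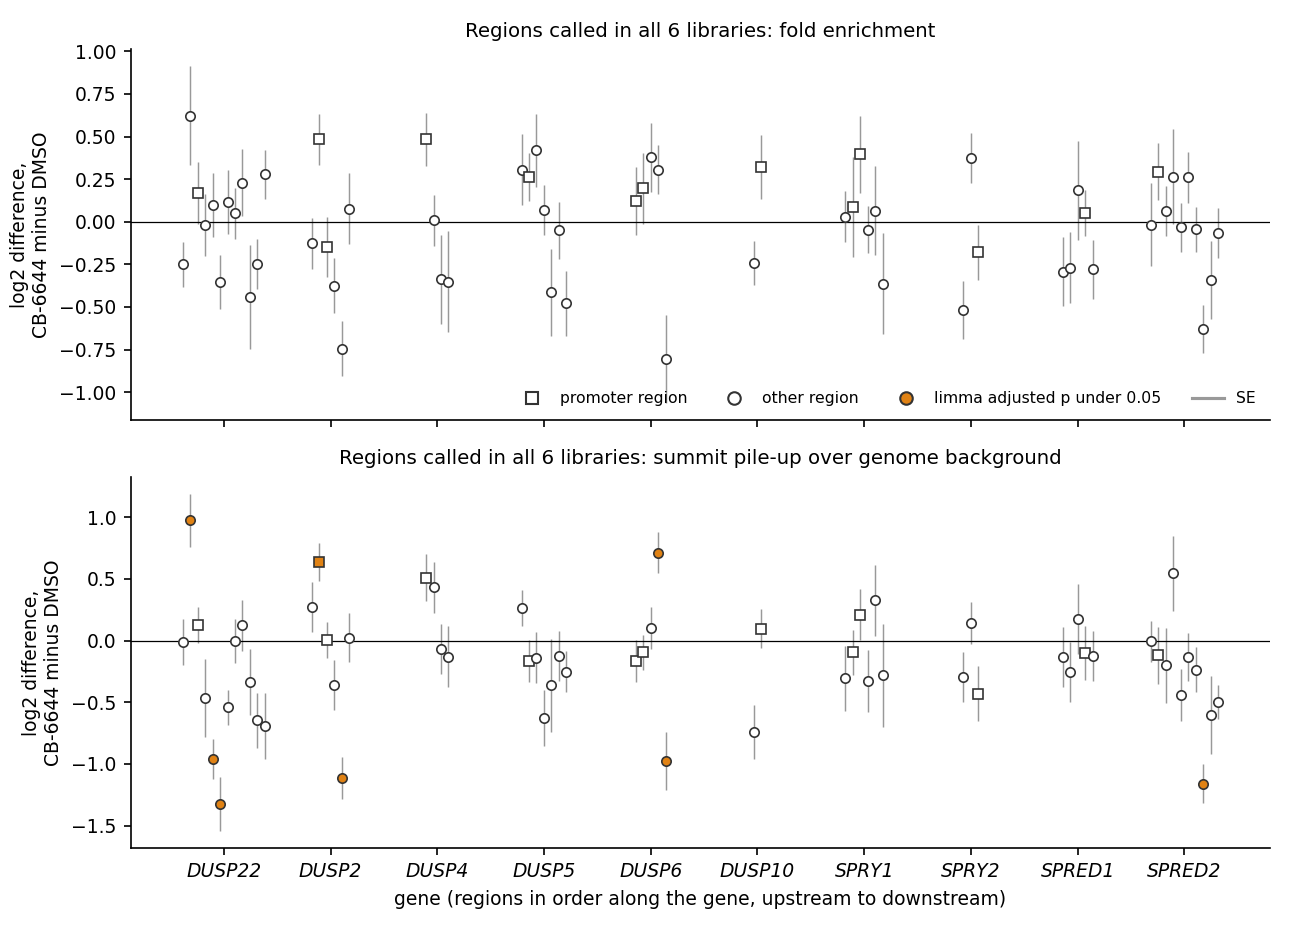
Log2 differences, CB-6644 minus DMSO, at the 60 regions called in all 6 libraries, by gene and in order along it, in fold enrichment (upper panel) and in summit pile-up over the genome-wide background (lower panel), with limma standard errors. Squares are promoter regions and filled points have an adjusted p under 0.05; none is filled above and 8 are filled below, at DUSP22, DUSP2, DUSP6 and SPRED2.

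DUSP22, the atypical phosphatase, had the largest window by regions. Its record (ENSG00000112679.15, chr6:291630-351355, plus strand) and flanks held 27 regions, 13 inside DUSP22, 6 inside the neighboring gene IRF4 and 8 in neither. Of these 12 were called in all 6 libraries. The window reaches the first part of IRF4, a transcription factor on which myeloma cells depend, so regions more than 100 kb from the DUSP22 5′ end lie in that record. By pile-up 9 of the 12 shared regions were lower and 3 higher with CB-6644, with a median log2 difference of -0.40. In fold 5 were lower and 7 higher, with a median of 0.07.

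Inside the gene, 2 neighboring shared regions passed in pile-up, both lower with CB-6644. The intronic region chr6:322862-323563 lay 31.6 kb from the 5′ end of the gene. From the nearest annotated protein-coding start site of DUSP22 it lay at -1.95 kb (negative: upstream). Relative to the median shared region of each library, its pile-ups were 1.25, 0.939 and 1.54 in the CB-6644 libraries and 2.597, 3.06 and 3.6 in the DMSO libraries. Every DMSO library stood above every CB-6644 library, on means of 1.24 ± 0.301 against 3.09 ± 0.502 (SD, n = 3 each), and the log2 difference was -1.33 (SE 0.22, limma adjusted p = 0.00899). The region chr6:319743-320191, which overlaps an exon 28.3 kb from the 5′ end, gave 1.397, 1.12 and 1.32 in the CB-6644 libraries and 2.19, 2.68 and 2.6 in the DMSO libraries. Here too the groups were apart, with a difference of -0.96 (SE 0.16, limma adjusted p = 0.0101). Both calls were lost without DMSO replicate 2, at adjusted p of 0.0517 and 0.0676 (limma), and that of the exonic region also without DMSO replicate 3, at 0.0504. The next shared region of the gene, chr6:327968-328665, had a pile-up difference of -0.54 (SE 0.14, limma adjusted p = 0.0507) with groups that did not overlap, and passed with the fragment-length term (limma adjusted p = 0.0144) and in the long-fragment libraries (0.0453). An intronic region 14.1 kb from the 5′ end differed by -0.47 (SE 0.32, limma adjusted p = 0.425) in pile-up and passed with the term (limma adjusted p = 0.0387) but not in the long-fragment libraries (0.138).

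In fold enrichment the same 2 regions did not pass. The exonic one had folds of 8.06, 11.97 and 7.53 in the CB-6644 libraries and 11.4, 8.88 and 7.59 in the DMSO libraries, a log2 difference of 0.10 (SE 0.19, limma adjusted p = 0.812). At the intronic one the folds were 7.14, 9.98 and 8.86 in the CB-6644 libraries and 14.4, 10.8 and 11.1 in the DMSO libraries, which did not overlap, a difference of -0.35 (SE 0.16, limma adjusted p = 0.404). Beside these values, the local background, divided by the genome-wide background of the same library, was 12.8, 10.5 and 12.4 in the CB-6644 libraries and 22.1, 24.6 and 24.4 in the DMSO libraries at the exonic region and 13.05, 10.6 and 12.2 in the CB-6644 libraries and 20.8, 22.98 and 23.1 in the DMSO libraries at the intronic one. The local background thus differed between the groups in the same direction as the summits. The 2 regions are neighbors, and whether their backgrounds count the same fragments, or those of the summits, is not known. The part of the background in the result was not tested. The exonic region fell outside the rule for named regions in fold and was named after its pile-up was seen.

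Upstream of DUSP22 the direction was the opposite. The intergenic region chr6:257792-258246, 33.6 kb before the 5′ end, had relative pile-ups of 2.73, 3.73 and 2.51 in the CB-6644 libraries and 1.89, 1.42 and 1.26 in the DMSO libraries. All CB-6644 libraries exceeded all DMSO libraries, and the log2 difference was 0.97 (SE 0.22, limma adjusted p = 0.027), a call that was lost without CB-6644 replicate 1 (adjusted p = 0.0579), CB-6644 replicate 3 (0.053), DMSO replicate 2 (0.122) or DMSO replicate 3 (0.108) by limma. Its folds overlapped, at 23.7, 44.6 and 22.8 in the CB-6644 libraries and 33.1, 17.6 and 14.9 in the DMSO libraries, with a difference of 0.62 (SE 0.29, limma adjusted p = 0.432). In the 4 long-fragment libraries alone the fold difference was 0.57 (SE 0.10, limma adjusted p = 0.0357).

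Group-only regions of both kinds lay in the introns of DUSP22. The CB-6644-only region chr6:313132-313490 had folds of 8.15, 8.55 and 8.57 in its 3 libraries, and the DMSO-only region chr6:316476-316848 had 5.99, 5.77 and 4.87. Neither had a peak in the other group, and the lists do not show how far below the calling threshold the signal was there. Within IRF4, DMSO-only exonic regions had folds of 2.702, 2.38 and 2.63 (chr6:397101-397270) and 4.04, 3.14 and 2.89 (chr6:398742-399169), and the CB-6644-only intronic region between them had 5.33, 9.79 and 4.19 (chr6:397703-397868). Other partial calls in the window were mixed, such as a region 31.5 kb upstream of DUSP22 that was called in every library but CB-6644 replicate 2. The shared IRF4 region chr6:391176-392450 differed by -0.65 in pile-up (SE 0.225, limma adjusted p = 0.117), with groups apart. It passed with the fragment-length term (limma adjusted p = 0.0284) but not in the long-fragment libraries (0.101). In pile-up chr6:399774-400174, also in IRF4, differed by -0.69 (SE 0.27, limma adjusted p = 0.16) and passed in both of those fits (0.00584 and 0.0176). In fold the differences were -0.25 and 0.28 (limma adjusted p = 0.543 and 0.483).

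**Figure D4:**
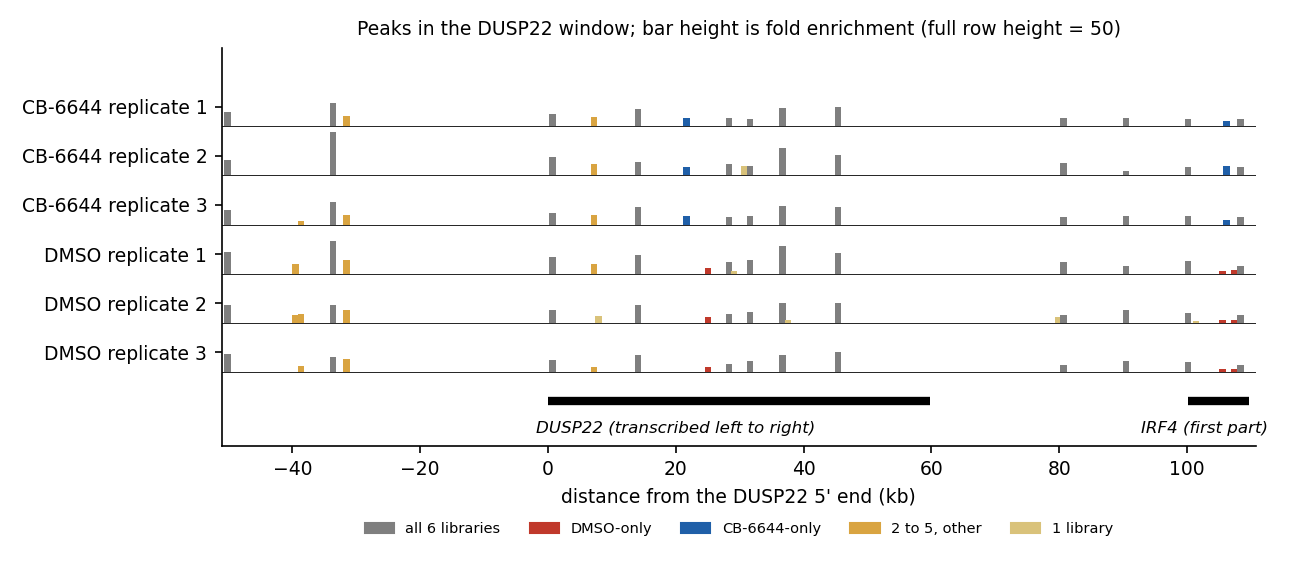
Peaks in the DUSP22 window by distance from the DUSP22 5′ end (horizontal axis, kb) in the 6 libraries (rows), with bar height for fold enrichment on a scale of 0 to 50 per row and bars drawn wider than the peaks. Grey bars are called in all 6 libraries, and the CB-6644-only (blue) and DMSO-only (red) bars are low and lie in DUSP22 between 20 and 30 kb and in IRF4 beyond 100 kb.

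DUSP2, an inducible nuclear phosphatase of immune cells, has a short record (ENSG00000158050.5, chr2:96143169-96145440, minus strand) whose window held 10 regions, 6 of them shared and none group-only. The strongest difference lay 13.9 kb downstream of its 5′ end, in an intron of the neighboring gene ASTL (chr2:96131245-96131889). Folds there were 8.24, 8.58 and 11.01 in the CB-6644 libraries and 18.2, 17.8 and 14.7 in the DMSO libraries. The groups did not overlap, at 9.27 ± 1.51 against 16.9 ± 1.89 (SD, n = 3 each), and the log2 difference of -0.74 (SE 0.16, limma adjusted p = 0.101) had the lowest adjusted p of the 60 regions in fold without passing. Relative pile-ups were 0.302, 0.303 and 0.392 in the CB-6644 libraries and 0.625, 0.77 and 0.756 in the DMSO libraries, a difference of -1.11 (SE 0.17, limma adjusted p = 0.00745). The pile-up call was lost without DMSO replicate 2 (limma adjusted p = 0.0524). The local background over the genome-wide one was 1.83, 1.36 and 1.76 in the CB-6644 libraries and 2.62, 2.85 and 2.99 in the DMSO libraries, lower with CB-6644 as well, and its part was not tested.

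A second promoter region of DUSP2, 1.10 kb upstream of its 5′ end (chr2:96146205-96146876), was higher with CB-6644. Its relative pile-ups were 1.16, 1.09 and 1.27 in the CB-6644 libraries and 0.694, 0.73 and 0.844 in the DMSO libraries, a log2 difference of 0.64 (SE 0.15, limma adjusted p = 0.0368). In fold the values were 7.702, 9.49 and 7.63 in the CB-6644 libraries and 6.99, 6.13 and 6.21 in the DMSO libraries, again without overlap, and the difference was 0.48 (SE 0.15, limma adjusted p = 0.208). The pile-up call held only without CB-6644 replicate 2 among the 6 fits that left out a library (limma adjusted p = 0.0208), and the other 5 gave 0.0758 to 0.167. The leading DUSP2 promoter region, which lies less than 1 kb away, had a pile-up difference of 0.01 (SE 0.14, limma adjusted p = 0.988).

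At DUSP4 (ENSG00000120875.9, chr8:29333064-29350684, minus strand), 8 regions were found, 4 of them shared, and none was group-only. The promoter described above had a pile-up difference of 0.51 (SE 0.19, limma adjusted p = 0.146), the largest promoter difference after that at DUSP2, and its relative pile-ups were 4.05, 3.03 and 4.51 in the CB-6644 libraries and 2.36, 2.69 and 3.01 in the DMSO libraries. Those groups did not overlap either. The promoter passed in fold once the fragment-length set was a term, at 0.48 (SE 0.12, limma adjusted p = 0.0418), but neither without that term nor in the long-fragment libraries, at 0.39 (SE 0.11, limma adjusted p = 0.0961). Its pile-up difference passed with the term (limma adjusted p = 0.0249) and in the long-fragment libraries (0.0295). An exonic region 10.3 kb into the gene had the strongest folds of the window, 21.8, 26.04 and 24.4 in the CB-6644 libraries and 34.3, 24.6 and 20.99 in the DMSO libraries, which overlapped, and a fold difference of 0.01 (SE 0.15, limma adjusted p = 0.982).

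DUSP5, a nuclear phosphatase selective for ERK (ENSG00000138166.6, chr10:110497907-110511533, plus strand), had 14 regions in its window, 7 of them shared. The DMSO-only region chr10:110492430-110492675, 5.35 kb upstream, had folds of 7.95, 7.06 and 10.97 in the DMSO libraries and no peak in any CB-6644 library. Another 2 DUSP5 regions, both intronic, were called in all DMSO libraries and in 2 CB-6644 libraries. At the first of them, 3.47 kb from the 5′ end, the folds were 2.88 and 5.06 in CB-6644 replicates 1 and 2 and 7.25, 4.77 and 3.79 in the DMSO libraries. No shared DUSP5 region passed in either measure in the 6 libraries without the fragment-length term. By pile-up 6 of the 7 were lower with CB-6644, and the lowest, chr10:110504065-110504433 in an intron, differed by -0.63 (SE 0.23, limma adjusted p = 0.13). Its relative pile-ups, 1, 0.636 and 1 in the CB-6644 libraries and 1.08, 1.51 and 1.43 in the DMSO libraries, did not overlap. This region passed in pile-up with the term (limma adjusted p = 0.00802) and in the long-fragment libraries, at -0.56 (SE 0.15, limma adjusted p = 0.0302).

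DUSP6, the cytoplasmic ERK phosphatase and a common readout of ERK activity (ENSG00000139318.8, chr12:89347235-89352501, minus strand), had 6 regions, 5 shared and 1 DMSO-only. The DMSO-only region lay 0.618 kb into the gene (chr12:89351664-89352101), and its folds of 2.49, 2.92 and 2.23 were among the lowest of the windows. It is itself a promoter region and directly adjoins the leading promoter region (chr12:89352156-89352994), which was called in all 6 libraries. The difference of 5 against 6 regions in this window is this same call. Downstream of the gene, 44.4 kb from its 5′ end, the intergenic region chr12:89307850-89308336 had folds of 15.3, 8.28 and 14.8 in the CB-6644 libraries and 23.5, 25.2 and 22.1 in the DMSO libraries. The groups were apart, at 12.8 ± 3.92 against 23.6 ± 1.54 (SD, n = 3 each), and the log2 difference of -0.81 (SE 0.26, limma adjusted p = 0.236) was the lowest of the 60 in fold and did not pass. The fold of 8.28 in CB-6644 replicate 2 came from 9 fragments at the summit over a local background of 0.208 tags. The part of the constant added to both terms was not tested. The relative pile-ups there were 0.476, 0.273 and 0.419 in the CB-6644 libraries and 0.625, 0.85 and 0.778 in the DMSO libraries, a difference of -0.97 (SE 0.23, limma adjusted p = 0.0352). That call was lost in the fits without CB-6644 replicate 3, DMSO replicate 1, 2 or 3, at limma adjusted p of 0.0521 to 0.155.

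Between that region and the gene, 18.5 kb from the 5′ end, chr12:89333902-89334191 moved the other way. Relative pile-ups were 0.714, 0.788 and 0.757 in the CB-6644 libraries and 0.528, 0.47 and 0.389 in the DMSO libraries, without overlap, and the difference was 0.71 (SE 0.16, limma adjusted p = 0.0304). Its folds were 21.6, 19.7 and 23.4 in the CB-6644 libraries and 21.6, 19.8 and 16.04 in the DMSO libraries, a difference of 0.31 (SE 0.15, limma adjusted p = 0.441), and it was named after its pile-up was seen. Leaving out CB-6644 replicate 1 or 3 or DMSO replicate 2 or 3 gave limma adjusted p of 0.0648 to 0.125 for the pile-up. The flank of DUSP6 downstream of the gene thus held a shared region with a higher and another with a lower pile-up.

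The DUSP10 window (ENSG00000143507.18, chr1:221701424-221742089, minus strand) held 6 regions, of which the promoter and an intergenic region 35.4 kb upstream were shared. The latter (chr1:221776808-221778123) had relative pile-ups of 1.54, 0.939 and 1.5 in the CB-6644 libraries and 1.97, 2.14 and 2.4 in the DMSO libraries, which did not overlap, and a difference of -0.74 (SE 0.22, limma adjusted p = 0.0688). With the fragment-length term the pile-up difference passed (limma adjusted p = 0.00741), as it did in the long-fragment libraries, at -0.58 (SE 0.16, limma adjusted p = 0.0289). Its folds of 11.9, 12.5 and 12.01 in the CB-6644 libraries and 18.8, 14.8 and 13.8 in the DMSO libraries differed by -0.24 (SE 0.13, limma adjusted p = 0.503). A region 12.3 kb upstream was called in all DMSO libraries, with folds of 26.5, 23.7 and 22.8, and in CB-6644 replicates 1 and 3, with 10.9 and 11.8, and not in the short-fragment CB-6644 replicate 2. The pair of CB-6644 folds was lower than all DMSO folds, and with the call missing in a library the region did not enter the test.

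The Sprouty genes showed no region that passed in either measure, with or without the fragment-length term or in the long-fragment libraries. SPRY1 (ENSG00000164056.11, chr4:123396795-123403760, plus strand) had 8 regions, 6 shared, with pile-up differences from -0.33 to 0.33 and fold differences from -0.36 to 0.40. Its strongest region, 21.9 kb downstream of the 5′ end, had folds of 25.6, 23.8 and 26.7 in the CB-6644 libraries and 32.7, 29.4 and 24.3 in the DMSO libraries. At SPRY2 (ENSG00000136158.12, chr13:80335976-80341126, minus strand), with 4 regions and 3 shared, an upstream region at 21.0 kb (chr13:80361958-80362196) had folds of 10.1, 8.28 and 7.07 in the CB-6644 libraries and 15.2, 12.8 and 11.7 in the DMSO libraries. These did not overlap, and the difference was -0.52 (SE 0.17, limma adjusted p = 0.248). The relative pile-ups of this region did overlap, with a difference of -0.30 (SE 0.20, limma adjusted p = 0.434). Another region 1.89 kb upstream of SPRY2 differed in fold in the opposite direction, by 0.37 (SE 0.15, limma adjusted p = 0.338).

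SPRED1 (ENSG00000166068.13, chr15:38252836-38357249, plus strand) had 9 regions in its window, 5 of them shared. No SPRED1 region passed in the 6 libraries, with or without the fragment-length term, and the centered values of the groups overlapped at all 5 in both measures. In the long-fragment libraries an intergenic region 14.3 kb upstream (chr15:38238349-38238654) passed in pile-up, at -0.59 (SE 0.15, limma adjusted p = 0.0259), and in the 6 libraries it differed by -0.26 (SE 0.24, limma adjusted p = 0.579). Pile-up differences ran from -0.26 to 0.17 and fold differences from -0.29 to 0.18. Beside the promoter, 1 shared region lay within the gene, in an intron at 21.5 kb, and had folds of 15.7, 19.9 and 21.2 in the CB-6644 libraries and 24.3, 27.1 and 23.4 in the DMSO libraries. The CB-6644 values all lay below the DMSO values before centering and overlapped with them after it, and the difference was -0.28 (SE 0.17, limma adjusted p = 0.559).

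SPRED2 (ENSG00000198369.10, chr2:65310851-65432637, minus strand) held 15 regions, 10 of them shared, and none was group-only. By pile-up 9 of the 10 were lower with CB-6644, with a median log2 difference of -0.22. In fold 6 were lower, with a median of -0.03. The intronic region chr2:65374622-65375179 lay 57.7 kb from the 5′ end and 2.85 kb from the nearest annotated protein-coding start site of SPRED2. Its relative pile-ups were 0.762, 0.636 and 0.676 in the CB-6644 libraries and 1.597, 1.39 and 1.64 in the DMSO libraries. The groups did not overlap, at 0.691 ± 0.0642 against 1.54 ± 0.135 (SD, n = 3 each), and the difference was -1.16 (SE 0.15, limma adjusted p = 0.00446). The region passed in pile-up in each of the 6 fits that left out a library, with limma adjusted p of 0.00244 to 0.0279, and no other of the 60 did.

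The folds of this SPRED2 region were 15.5, 14.7 and 14.5 in the CB-6644 libraries and 31.2, 22.8 and 22.5 in the DMSO libraries. They did not overlap, at 14.9 ± 0.5297 against 25.5 ± 4.91 (SD, n = 3 each), and the difference of -0.63 (SE 0.14, limma adjusted p = 0.106) did not pass. The fragment-length term gave the same difference with an adjusted p of 0.0158, and the long-fragment libraries gave -0.55 (SE 0.11, limma adjusted p = 0.0462). The local background over the genome-wide one was 2.76, 2.38 and 2.56 in the CB-6644 libraries and 4.67, 4.31 and 4.56 in the DMSO libraries, lower with CB-6644, and its part in the difference was not tested. A further intronic region 74.8 kb from the 5′ end (chr2:65357218-65358423) passed in the long-fragment libraries, at -0.63 in fold (SE 0.09, limma adjusted p = 0.026) and -0.97 (SE 0.15, limma adjusted p = 0.00216) in pile-up, and in the 6 libraries its fold differed by -0.34 (SE 0.23, limma adjusted p = 0.581).

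**Figure D5:**
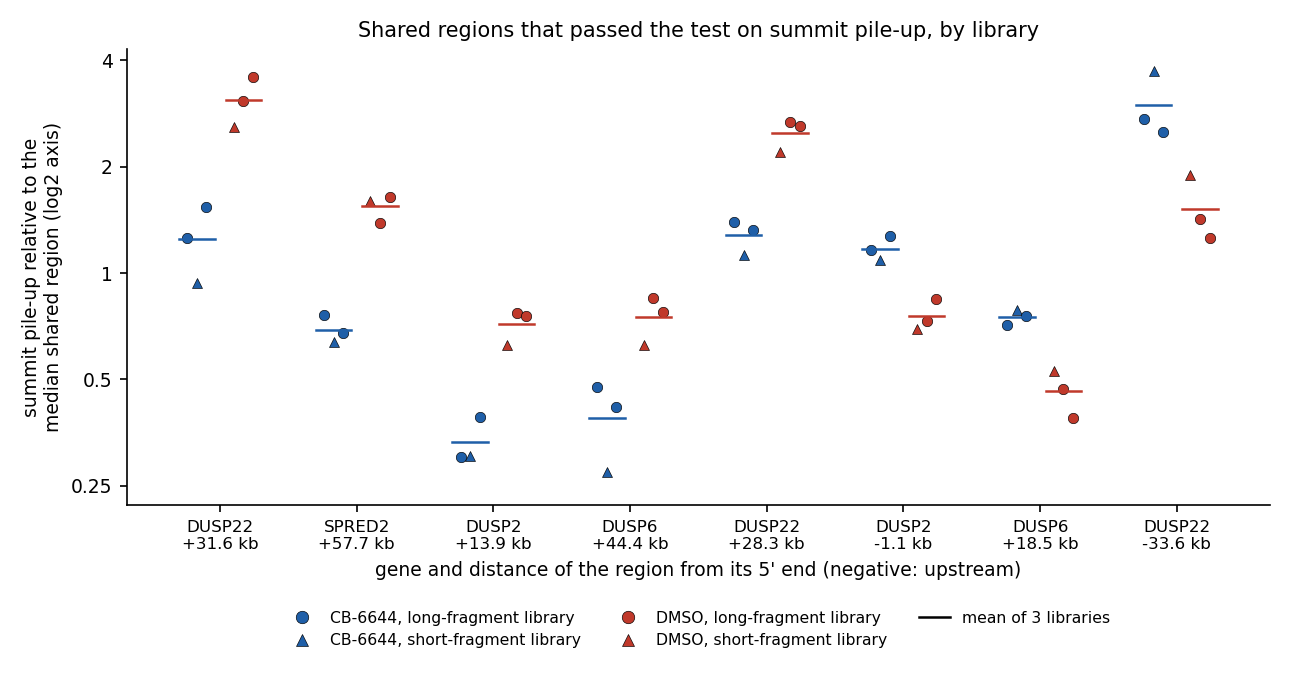
Summit pile-up relative to the median shared region of the same library (vertical axis, log2 scale) at the 8 regions that passed in pile-up, ordered from the largest fall to the largest rise, with 1 point per library and bars at the group means. The groups do not overlap at any of the 8, and the 5 regions on the left that were lower with CB-6644 include 2 in DUSP22 and 1 in SPRED2.

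Base composition and motif matches of the 107 regions were set beside those of all open regions. Windows reaching 100 bp to either side of the summits had a median GC content of 65.7% at the 17 member promoter regions and 47.8% at the other 90, against 49.3% over all merged regions. AP-1 (TGANTCA), a target of MAP kinase signaling through FOS and JUN, matched in 11 of 107 regions (10.3%, against 10.5% of all), and ATF4-CEBP (TGATGNAA) in 4 (3.7% against 3.98%). MAF (TGCTGAC) matched in 6 (5.6% against 5.31%), the E-box CAGGTG in 21 (19.6% against 27.7%) and the IRF consensus in 5 (4.7% against 9.98%). ETS (CCGGAAGT) and CRE (TGACGTCA) matched in none, against 1.28% and 0.66% of all regions. Matches were counted on both strands, and a region could match several motifs. A match is a description of letters in the window.

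The rest of the pathway was read from a list of 46 genes. Promoter regions were called in all 6 libraries at 45 of them, DUSP9 being the exception. Their windows held 402 regions, 233 of them shared, with 14 DMSO-only regions (3.5%, against 4.5% of all merged regions) in the windows of 10 genes (21.7%, against 19.8% of all genes) and 0 CB-6644-only regions (against 0.586%). In fold 1 shared region was higher by limma (0.4%, against 0.238%) and 0 were lower (against 0.195%), the former near FOSL1, a FOS family gene that responds to ERK. In pile-up 7 were higher and 7 lower (3.0% each, against 5.36% and 4.52%). None of these shares was tested against its background. The 15 kinase genes had 5 DMSO-only regions among 138 (3.6%) in the windows of 3 genes, and, among 82 shared regions, 3 higher and 4 lower regions in pile-up. The 3 negative regulators NF1, RASA1 and RASA2 had 5 DMSO-only regions among 43 (11.6%, against 4.5%), at least 1 in each window (against 19.8% of all genes). The other 3 Sprouty and SPRED genes, SPRY3, SPRY4 and SPRED3, had 0 group-only regions and 0 that passed in either measure, and the 9 other dual-specificity phosphatases had 1 DMSO-only region and 1 higher and 1 lower region in pile-up.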

How the data were processed

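Groups and replicate numbers came from the labels (3 CB-6644 and 3 DMSO libraries, 6 peak lists). Per the submitters' processing notes, the authors used Bowtie2 2.4.2 for alignment (hg38) and MACS3 3.0 for the peaks of each library, and caller settings are not given in the sources used here. In the deposited lists the fold enrichment is the authors' ratio of summit pile-up to local background, with the same constant added to both. The -log10 p and -log10 q values are those of their peak caller. The deposited score column, a multiple of -log10 q, was not used. The study tested read counts, which peak lists do not hold.

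Peaks were merged and placed with GENCODE release 44. Summit pile-up and background were solved from fold and -log10 p under a Poisson model, and gave whole pile-ups (tolerance 0.01) for 99.4 to 100.0% of peaks. Libraries with a shortest peak under 100 bp formed the short-fragment set, an inference from the lists. Shared regions were tested with limma 3.58.1 in R 4.3.3 on median-centered log2 values, with Benjamini-Hochberg adjustment over 42089 regions and a threshold of 0.05. Library totals were compared by exact two-sided permutation. Other steps used Python 3.11.15 with scipy 1.17.1. Scripts were tested on simulated data. With unknown depth no interval or detection limit was computed for absent peaks.

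The named regions were the leading promoter of each gene, all group-only regions, and, since no shared region passed in fold, the 3 largest rises and 3 largest falls. Regions that passed in pile-up, and other regions given to fill out a gene, were named after their values were seen. The members and lists were chosen with earlier results of these data known. The pile-up measure was chosen together with the test in fold, and its combinations with the fragment-length term, the long-fragment libraries, leave-one-out fits and the replicate block were added after seeing the data.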

Additional observations from a re-analysis of the deposited data

How the results depend on the processing

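The 10 promoters called in all libraries became 6 with the 20000 top peaks of each library. The 5 DMSO-only regions (4.5% of all merged regions were DMSO-only) became 1 with equal numbers of top peaks (2.47% of all), 3 with the 20000 top peaks (2.79%), 2 in the thinned long-fragment libraries (6.22%), 3 with 10 kb flanks and 8 when 2 of 3 libraries sufficed (9.05%), and 5 to 8 on leaving out a library (8 without DMSO replicate 3). The 2 CB-6644-only regions (0.586% of all) became 0 with the 20000 top peaks (2.13%), 1 with 10 kb flanks and 4 when 2 of 3 libraries sufficed (1.78%), and 2 to 4 on leaving out a library (4 without CB-6644 replicate 3). The difference of -7 regions per library reversed to 4.67 with equal numbers of top peaks, and the difference per 1000 regions reversed to -0.22 with the 20000 top peaks. The causes were not tested.

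The count of 0 shared regions that passed in fold was 8 with summit pile-up and 8 with -log10 p, 7 with the fragment-length term and 5 in the long-fragment libraries, and it was 16 with pile-up and that term and 16 with pile-up in the long-fragment libraries. Leaving out a library gave 0 to 2 in fold (2 without CB-6644 replicate 2) and 1 to 9 in pile-up. With the replicate block the fold count stayed 0, the pile-up count was 5 and the differences of -7 and 0.0904 had exact p = 0.25. The numbers are not shown to pair the libraries, since same-numbered deviations correlated at -0.54, -0.37 and 0.39 over shared regions.

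Single differences (log2, limma) that reversed did not pass unless stated. With pile-up they were 0.0052 at the DUSP2 promoter, -0.16 at DUSP5, -0.10 at DUSP6, SPRY1 and SPRED1, -0.12 at SPRED2 and -0.96 (passed) at the DUSP22 exonic region. With -log10 p they were -0.14 at DUSP5 and SPRED1, -0.12 at DUSP6, -0.19 at SPRY1 and -0.94 (passed) at the DUSP22 exonic region. Without centering they were -0.0399 at SPRY1, -0.0748 at SPRED1 and -0.0285 at the DUSP22 exonic region. In the long-fragment libraries they were -0.14 at SPRY1, 0.0048 at SPRY2 and -0.0278 at the DUSP22 exonic region. On leaving out a library they ran from -0.0075 (without CB-6644 replicate 2, which gave the lowest value at each of these sites) to 0.29 at the DUSP22 promoter, -0.0294 to 0.32 at DUSP6, -0.27 to 0.32 at SPRY1 and -0.0843 to 0.23 at the DUSP22 exonic region. Peak lists hold no read depth, which limits every statement on absent peaks.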
